A study of Homo sapiens with 12 samples.

Results

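MM.1R cells were compared with MM.1S cells after both human multiple myeloma lines had been kept with stromal cells, on 4 of the 12 arrays of the study. The members were the 2 arrays titled MM1R and the 2 titled MM1S that carry the coculture label, and 15052 genes were described across them. Both lines carry green fluorescent protein (GFP). Each had spent 24 hours with HS-5, an unlabelled line of human bone marrow stromal cells, after which a cell sorter collected the cells with GFP. The other 8 arrays hold 2 each of MM.1S alone, MM.1R alone, INA-6 alone and INA-6 after the same coculture. The INA-6 myeloma line needs interleukin 6 to grow. The 2 arrays of each group are stated to be technical replicates, so a p-value measures only the spread between duplicate arrays of 1 preparation. The sorted HS-5 cells were not analysed here.

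Multiple myeloma is a cancer of plasma cells, the antibody-secreting cells that live in the bone marrow next to stromal cells. Stromal cells lay down collagen and fibronectin and secrete interleukin 6 and chemokines, and contact with them is known to support the growth of myeloma cells. MM.1S is killed by dexamethasone, a synthetic glucocorticoid, whereas MM.1R is its dexamethasone-resistant counterpart. Glucocorticoids act through the glucocorticoid receptor, encoded by NR3C1, which is held by HSP90 chaperones until hormone binds and then regulates genes in the nucleus. No dexamethasone treatment is named in the labels.

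The sorted cells of both lines had plasma cell markers at the same summed level and stromal markers at unequal summed levels. The summed value of 10 plasma cell markers lay between 29253 and 29980 in MM.1S and between 29343 and 29919 in MM.1R after coculture, a ratio of 1.0, with all 10 above the array median. The summed value of 39 stromal markers lay between 19351 and 19477 in MM.1S and between 35081 and 36126 in MM.1R, which is 1.83 times as much, with 31 and 33 of the 39 above the array median. In the same lines alone the stromal sum was 3284 to 3417 and 4601 to 4654, with 17 and 16 of the 39 above the array median. The sum thus holds markers that the lines alone also show. The stromal markers LUM, POSTN and CNN1 stood at 11.9 or lower on all 4 arrays, near the bottom of the scale. T cell, myeloid and endothelial markers, 4 of each, summed to at most 121 on any of the 4 arrays. The ratio of 3-prime to 5-prime signal of the ACTB control, which rises when transcripts are shortened, was 5.10 ± 0.191 in MM.1S and 5.21 ± 0.285 in MM.1R (SD, n = 2), and that of GAPDH was 1.89 ± 0.0354 and 1.71 ± 0.0152 (SD, n = 2). In the lines alone the ACTB ratio was 22.4 ± 0.456 and 31.4 ± 1.16 (SD, n = 2). Duplicates correlated at 0.986 and 0.978 across genes in the cocultured groups, and INA-6 alone stood apart with 0.839.

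After coculture the lines differed little in genes that myeloma cells express, and MM.1R carried about 2-fold higher values of stromal-type genes. Genes were divided by arrays that the comparison does not use. Myeloma-expressed genes lay above the array median on all 4 arrays of MM.1S and MM.1R alone (10393 genes). Stromal-type genes lay below it on all 6 arrays of cells alone, above it on both INA-6 coculture arrays, and at least 4-fold higher in INA-6 after coculture than alone (112 genes). The median difference, MM.1R minus MM.1S on log2(value + 5), was 0.02 in myeloma-expressed genes, with quartiles at -0.10 and 0.15. It was 1.02 in stromal-type genes, a 2.03-fold higher level, with quartiles at 0.14 and 1.26, beside 0.02 over all genes tested. The 4 pairs of 1 array of each line gave medians of 0.00548 to 0.0502 for myeloma-expressed genes and 0.947 to 1.09 for stromal-type genes. The myeloma-expressed median turned to -0.03 under quantile normalization. In the same cells alone the stromal-type median was -0.02. The class rule keeps these genes low on those arrays, with median values of 6.49 or lower. A line difference could hardly show there, so the -0.02 is no contrast to the value after coculture. In sorted cells, stromal RNA carried along, stromal cells within the sort and stromal genes expressed by the myeloma cells cannot be told apart.

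**Figure D1:**
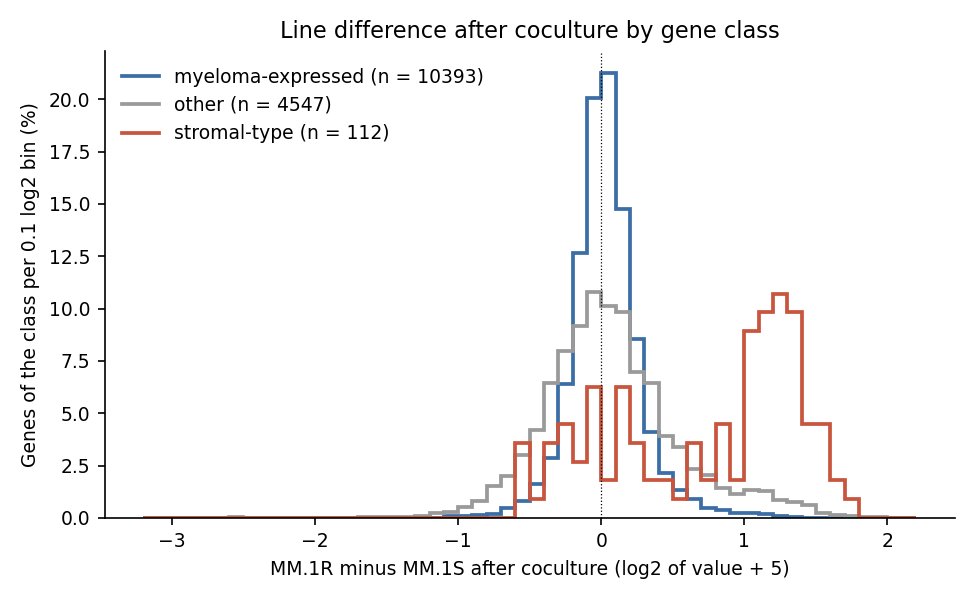
Share of each gene class (vertical axis, percent of the class per 0.1 log2 bin) at each difference between MM.1R and MM.1S after coculture (horizontal axis, log2 of value + 5, means of 2 arrays a line). The 10393 myeloma-expressed genes form a single narrow peak at 0, the 112 stromal-type genes form a low hump around 0 and a peak above 1, and the 4547 other genes spread more widely around 0.

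No gene passed the limma test on the 12 arrays at an adjusted p under 0.05 (0 of 15052, 0%), so no single gene is called higher or lower after coculture in that fit. At an unadjusted p under 0.05 it gave 690 genes (4.58%), 555 higher in MM.1R (3.69%) and 135 lower (0.897%). The limma fit of the 8 MM.1 arrays alone called 40 genes (0.266%), 34 higher (0.226%) and 6 lower (0.0399%), with 1611 at an unadjusted p under 0.05 (10.7%). Without the INA-6 alone arrays, whose duplicates agreed least, 181 genes were called higher and 32 lower, in a fit chosen after the data were seen. Genes are therefore described by size, as at least 2-fold apart with duplicates that do not overlap. By that rule, which has no test, 350 genes stood higher in MM.1R (2.33%) and 40 lower (0.266%). Duplicates of the lines did not overlap, at any size, for 4054 genes higher (26.9%) and 2720 lower (18.1%). The count of 350 became 543 without the first MM.1R coculture array. The count of 40 became 115 and 305 without the first and the second MM.1R coculture array, and 67 and 220 without the first and the second MM.1S coculture array.

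The 350 higher genes were 57 stromal-type, 58 myeloma-expressed and 235 other genes, and the 40 lower genes were 0, 15 and 25. Against the background of 2.33%, the 2-fold higher share was 50.9% of stromal-type genes and 0.558% of myeloma-expressed genes. Of the 58 myeloma-expressed genes that stood 2-fold higher, 29 were also at least 4-fold higher in INA-6 after coculture than alone. Among all 10393 myeloma-expressed genes, 1883 met that INA-6 condition, with a median difference of 0.04, and the remaining 8510 had a median of 0.01. Within 1.5-fold of each other lay 96.2% of the myeloma-expressed genes after coculture, and 69.4% of the same genes in the lines alone. The ACTB ratio was 5.10 and 5.21 after coculture and 22.4 and 31.4 in the lines alone, and its part was not tested. The genes named below were ranked by size within each class after their values were known, because the call they were meant to pass was made for 0 genes.

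The stromal-type genes were also divided by level on the arrays compared, which is a description and no test. Of the 112 genes, 72 lay above the array median on all 4 MM.1 coculture arrays. Their median difference was 1.19, or 2.29-fold, with quartiles at 1.02 and 1.32, and 59 of the 72 lay between 1.5-fold and 3-fold higher in MM.1R. The median of their values was 122 and 136 on the MM.1S arrays and 263 and 296 on the MM.1R arrays. The other 40 genes had a median difference of 0.10 and medians of 6.37 to 9.12 on these arrays, the bottom of the scale, where log2(value + 5) can show little difference. Among those 40 were CD69, an early activation marker of lymphocytes, at 3.17 and 4.71 in MM.1S and 3.71 and 5.26 in MM.1R, and THEMIS, a lymphocyte signalling gene, at 27.7 and 24.9 in MM.1S and 14.1 and 18.4 in MM.1R. These were high in INA-6 after coculture (123 for CD69 and 210.2 for THEMIS on its first array), so the class holds genes that are not markers of stromal cells. Among the 72, FBXO32, a ubiquitin ligase subunit, was 216 and 199.98 in MM.1S and 202 and 213 in MM.1R (-0.01), and its 5 probe sets ranged from -0.81 to 0.16. The lowest of the 72 was MIR210HG, the host gene of a hypoxia-induced microRNA, at 571 and 525 in MM.1S and 467 and 408 in MM.1R (-0.32).

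The 8 highest stromal-type genes that met every condition on probe sets lay between 1.44 and 1.64. PLAU, the urokinase plasminogen activator, was 63.0 and 73.2 in MM.1S and 238 and 209 in MM.1R, a difference of 1.64 ± 0.41 (SE, adjusted p = 0.323). COL4A2, a basement membrane collagen chain, was 87.1 and 74.6 in MM.1S and 249.8 and 257 in MM.1R (1.59 ± 0.27, adjusted p = 0.106). NBL1, a secreted antagonist of bone morphogenetic proteins, was 85.3 and 89.3 in MM.1S and 268 and 264 in MM.1R (1.55 ± 0.22, adjusted p = 0.0761). The duplicates of each line lay close together in these genes and the lines did not overlap. IFI27, an interferon-induced gene, was 54.0 and 69.9 in MM.1S and 173 and 180.1 in MM.1R, and the 8-array fit called it with an adjusted p of 0.0495. GPX8, a peroxidase of the endoplasmic reticulum, was 72.7 and 72.2 in MM.1S and 256 and 204 in MM.1R, with the same adjusted p of 0.0495 in that fit. ADAMTS1, TCEAL7 and WFDC12 completed the 8, at 1.53, 1.44 and 1.61, and WFDC12 stood near the floor, at 3.21 and 2.12 in MM.1S.

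Extracellular matrix genes stood higher in MM.1R as a group. Of the 18 tested genes of the stromal matrix list, 13 were at least 2-fold higher (2.33% of all genes), 0 were 2-fold lower (0.266%), and the median was 1.12 against 0.02 for all genes. Of these, 0 passed the test on 12 arrays and 2 passed in the 8-array fit (0.226%). COL1A2, a chain of type I collagen, was 812 and 762 in MM.1S and 2006 and 2000.4 in MM.1R (1.34 ± 0.19, adjusted p = 0.0761). FN1, fibronectin, to which myeloma cells adhere through integrins, was 1221 and 1213 in MM.1S and 2775 and 2939 in MM.1R (1.23 ± 0.36, adjusted p = 0.503). COL5A1, a regulator of collagen fibril size, was 164 and 161 in MM.1S and 380.3 and 384 in MM.1R (1.21 ± 0.13), and was called in the 8-array fit with an adjusted p of 0.0265. TGFBI, a secreted adhesion protein, was 752 and 813 in MM.1S and 1969 and 1913 in MM.1R, with an adjusted p of 0.0469 in the 8-array fit. COL6A1, already at 3224 and 3211 in MM.1S, was 4772 and 4523 in MM.1R, a difference of 0.53. COL1A1 was read from the probe set with the highest mean log2 value over 12 arrays, which gave 0.10. A COL1A1 probe set that was brighter after coculture, at 1302 and 1305 in MM.1S and 2548 and 3001 in MM.1R, gave 1.08, and its 5 probe sets ranged from 0.10 to 1.32. The probe sets ranged from -0.07 to 1.52 for THBS1, 0.29 to 1.51 for FN1 and -0.14 to 0.83 for COL6A1, so these genes were read differently by different probe sets.

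Cytokines known to be secreted by HS-5 cells stood higher in MM.1R for every member tested. All 18 had duplicates that did not overlap (background 26.9%), 11 were at least 2-fold higher (background 2.33%), and the median was 1.08. IL6, the growth factor of myeloma cells, was 2596 and 2568 in MM.1S and 5115 and 5134 in MM.1R (0.99 ± 0.54, adjusted p = 1.0), while it stood at 27.0 or lower in both lines alone. IL1A and IL1B, inflammatory cytokines, differed by 1.53 ± 0.29 and 1.20 ± 0.17, although a second probe set of IL1A gave -0.79. IL11, a relative of interleukin 6, was 273 and 267 in MM.1S and 703 and 705 in MM.1R. CSF3, which drives granulocyte production, was 473 and 464 in MM.1S and 1043 and 999.7 in MM.1R (1.12 ± 0.15), called in the 8-array fit with an adjusted p of 0.0495. CCL2, which attracts monocytes, was 43.5 and 44.6 in MM.1S and 165 and 161 in MM.1R (1.78 ± 0.36, adjusted p = 0.170). In INA-6 CCL2 was 6.79 and 16.57 after coculture and 8.35 and 17.52 alone, so it was not raised there. Of the 18 genes, 13 were at least 4-fold higher in INA-6 after coculture than alone, as were 2315 of all 15052 genes. CXCL8, a neutrophil attractant, was 5025 and 4959 in MM.1S and 6671 and 6702 in MM.1R, a difference of 0.42 on this probe set and 1.42 on its other.

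Proteases and their inhibitors showed a similar range. In this list 6 of 13 were at least 2-fold higher (background 2.33%), 0 were 2-fold lower (0.266%), and the median was 0.93. TIMP1, an inhibitor of matrix metalloproteinases, was 1039.9 and 1063 in MM.1S and 2980.3 and 2813 in MM.1R (1.46 ± 0.18, adjusted p = 0.0675). MMP3, a matrix metalloproteinase, was 1644 and 1668 in MM.1S and 3559 and 3521 in MM.1R (1.09 ± 0.20). MMP1, a collagenase with one of the brighter signals, was 6131 and 5884 in MM.1S and 8539 and 8652 in MM.1R, a difference of 0.52. Of the cytoskeleton and surface genes of stromal cells, 7 of 17 were at least 2-fold higher (background 2.33%), with a median of 0.79. NT5E (CD73), a surface enzyme of mesenchymal cells, was 379.5 and 373 in MM.1S and 1034 and 911 in MM.1R. PRRX1, a mesenchymal transcription factor, was 106 and 96.0 in MM.1S and 280.3 and 259 in MM.1R. Its 3 probe sets ranged from 0.17 to 1.37. TAGLN, a smooth muscle gene, stood at 32.1 or lower in both lines. MYL9, a myosin light chain, gave 0.07 on 1 probe set and 0.78 on another, at 29.9 and 22.8 in MM.1S and 53.6 and 43.8 in MM.1R.

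**Figure D2:**
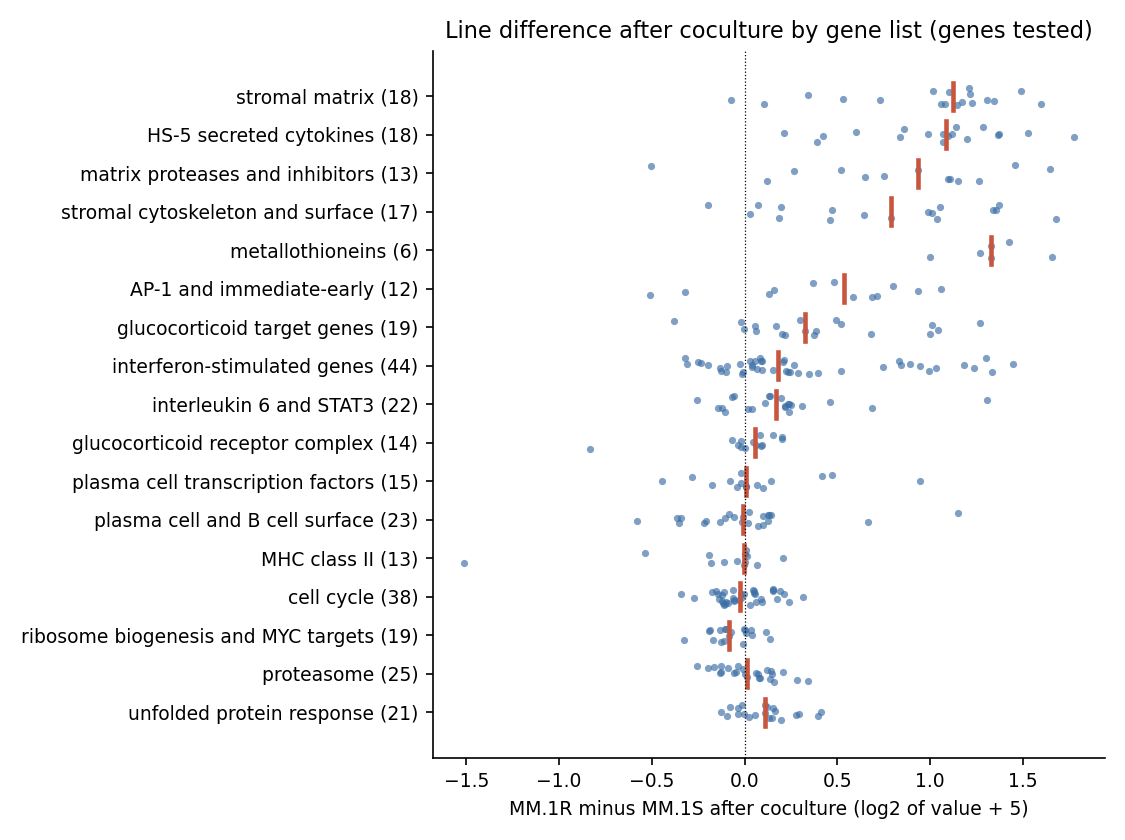
Difference between MM.1R and MM.1S after coculture (horizontal axis, log2 of value + 5) for each tested gene (points) of a set of gene lists (rows, number of genes tested in brackets), with the median of each list as a bar. The 4 stromal lists and the metallothioneins have medians between 0.79 and 1.33, and the plasma cell, cell cycle, ribosome and proteasome lists lie around 0.

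Metallothioneins, small proteins that bind zinc and copper and are induced by metals and glucocorticoids, were the list with the highest median of those examined, 1.33 over 6 genes tested. All 6 stood higher in MM.1R without overlap of the duplicates (background 26.9%), and 5 were at least 2-fold higher (2.33%). The 8-array fit called 3 (0.226%) and the 12-array fit 0. MT1X was 988 and 1016 in MM.1S and 2370.0 and 2475 in MM.1R (1.27 ± 0.16, adjusted p = 0.0675, and 0.0265 with 8 arrays). MT2A was 3062 and 2915 in MM.1S and 5913 and 6045 in MM.1R (1.0 ± 0.15, adjusted p = 0.0346 with 8 arrays). MT1H was 795 and 823 in MM.1S and 2015 and 2053 in MM.1R (1.33 ± 0.20, adjusted p = 0.0495 with 8 arrays). MT1X was also higher in MM.1R alone, at 127 and 134.5 against 67.3 and 69.2, a difference of 0.89 with an adjusted p of 0.0121, and MT2A was higher alone by 0.66 with an adjusted p of 0.0284. MT1F, MT1G and MT1E differed by 1.66, 1.43 and 1.33 after coculture. In INA-6 after coculture MT1X read above both MM.1 lines, at 3443 and 3319. Metallothionein genes are near-identical copies, so signal can be shared between them. The summed stromal markers moved in the same direction (1.83 times), and the part of stromal RNA in this difference was not tested.

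The promoters of 3 of these genes are shown because metals act on them through short metal response elements. The sequences are the 250 bases before the start of each gene, from RefSeq on GRCh38.p14, and capitals mark each match to the element's core, TGCNCNC, on either strand; no other motif was searched.
MT1H, chr16:56669564-56669813, plus strand: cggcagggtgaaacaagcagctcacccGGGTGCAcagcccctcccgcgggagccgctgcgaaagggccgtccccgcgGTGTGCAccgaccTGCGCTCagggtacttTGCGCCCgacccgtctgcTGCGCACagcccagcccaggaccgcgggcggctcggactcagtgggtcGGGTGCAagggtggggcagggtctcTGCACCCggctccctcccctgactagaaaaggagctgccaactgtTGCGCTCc
MT1X, chr16:56682220-56682469, plus strand: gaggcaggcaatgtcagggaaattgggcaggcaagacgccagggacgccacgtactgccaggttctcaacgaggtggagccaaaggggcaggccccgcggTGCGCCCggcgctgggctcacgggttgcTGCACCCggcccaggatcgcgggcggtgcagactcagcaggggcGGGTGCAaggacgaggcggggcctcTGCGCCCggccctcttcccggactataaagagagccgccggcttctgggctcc
MT2A, chr16:56608334-56608583, plus strand: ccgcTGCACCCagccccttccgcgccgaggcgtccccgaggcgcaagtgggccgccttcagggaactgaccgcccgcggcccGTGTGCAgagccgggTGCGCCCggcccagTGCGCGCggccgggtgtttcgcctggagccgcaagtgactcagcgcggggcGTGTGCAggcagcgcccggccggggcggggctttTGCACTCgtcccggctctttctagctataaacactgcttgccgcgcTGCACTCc
The core was matched 8 times for MT1H, 4 times for MT1X and 7 times for MT2A. Of 35116 promoters of the same length, 49.1% held at least 1 match, 5.85% at least 3 and 1.77% at least 4. A match is a description of the letters and was not tied to the array values.

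NR3C1, the glucocorticoid receptor gene, read lower in the resistant line after coculture and was lower there alone. On its brightest probe set it was 934 and 953 in MM.1S and 558 and 498 in MM.1R after coculture, and 915 and 1026 in MM.1S and 506 and 486 in MM.1R alone. The lines did not overlap in either condition. The difference was -0.83 ± 0.15 after coculture (SE, 1.78-fold lower, interval of the difference at 95% confidence -1.17 to -0.50, adjusted p = 0.116, and 0.0594 with 8 arrays). Alone it was -0.96 (adjusted p = 0.00713), which passed the test. The line difference differed between conditions by 0.13 with an adjusted p of 0.894. The difference after coculture passed the threshold without the INA-6 alone arrays, with an adjusted p of 0.0208. All 5 tested probe sets lay below 0 after coculture, from -1.08 to -0.69, and the duplicates of the lines did not overlap on any of them. On the brightest probe set NR3C1 was 81.15 and 86.07 in INA-6 alone and 476 and 481 in INA-6 after coculture. It thus read higher with stromal cells in that line, and the part of stromal RNA in the NR3C1 values was not tested.

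**Figure D3:**
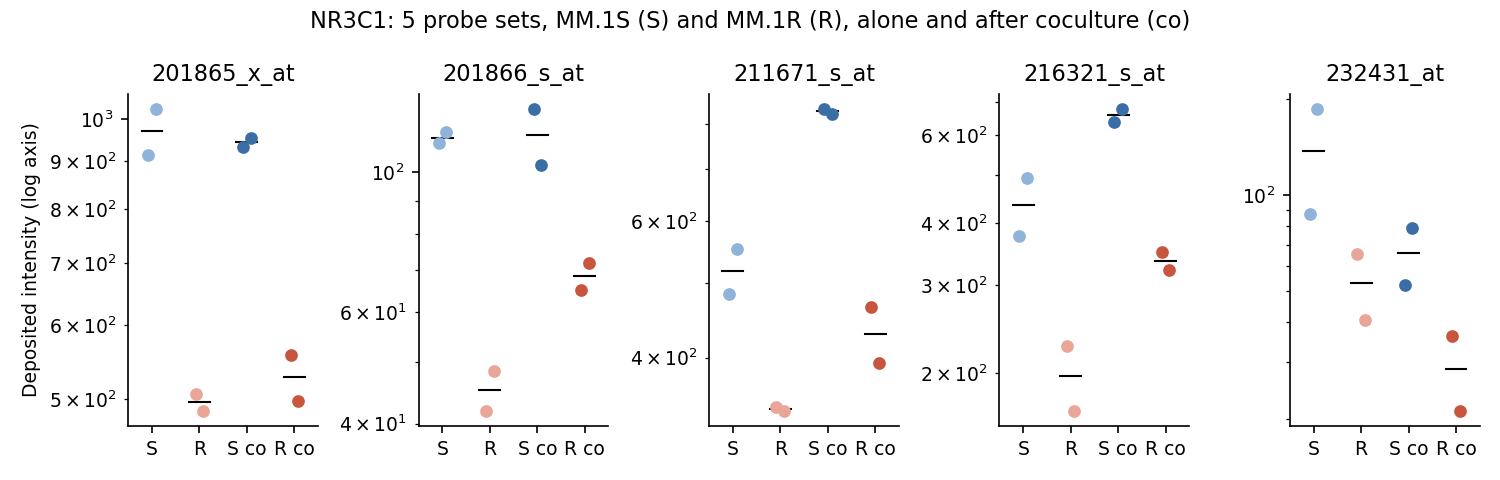
Deposited intensity (vertical axis, log scale, range differing by panel) of the 5 NR3C1 probe sets on each of the 2 arrays of MM.1S (S) and MM.1R (R), alone and after coculture (co), with the mean of the duplicates as a bar. On every probe set both MM.1R arrays lie below both MM.1S arrays within a condition, with 558 and 498 against 934 and 953 on the brightest probe set after coculture.

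The partners of the receptor did not show a difference of that size. The list of the receptor complex had 14 genes tested, NR3C1 included, which was the lowest at -0.83. Of the 14, 13 lay within 1.5-fold and 0 were 2-fold apart. Their median was 0.05, between -0.01 and 0.09 over the alternatives. HSP90AB1, an HSP90 chaperone, was 4468 and 4346 in MM.1S and 4653 and 4179 in MM.1R, and FKBP4, a cochaperone, differed by 0.06 ± 0.16. Among 19 glucocorticoid target genes the median was 0.33, with 3 at least 2-fold higher (background 2.33%), 0 lower (0.266%), and 13 higher without overlap (26.9%). TSC22D3 (GILZ) was 869 and 887 in MM.1S and 1117 and 1042 in MM.1R (0.30 ± 0.65). FKBP5, a negative regulator of the receptor, was 436 and 407.5 in MM.1S and 422 and 409.8 in MM.1R (-0.02 ± 0.14, interval -0.34 to 0.30). The 3 at 2-fold were MT1X, ANXA1 and ERRFI1, and ERRFI1 is also of the stromal-type class. BCL2L11 (BIM), which mediates death by glucocorticoids in lymphoid cells, was 449 and 476 in MM.1S and 495 and 471 in MM.1R (0.06 ± 0.53).

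Myeloma-expressed genes that stood 2-fold lower in MM.1R were few, 15 of 10393 (0.144%), and the lowest was H1-2, a linker histone. H1-2 was 921 and 933 in MM.1S and 127 and 85.8 in MM.1R after coculture, an 8.52-fold lower level (-3.09 ± 0.30, interval -3.78 to -2.40, adjusted p = 0.0675, and 0.0265 with 8 arrays). Alone it was 237 and 221 in MM.1S and 109 and 85.8 in MM.1R (-1.20, adjusted p = 0.0432). Its values in MM.1R thus covered the same range in both conditions, whereas MM.1S stood higher after coculture. H2BC12, a core histone, was 265 and 259 in MM.1S and 112 and 94.6 in MM.1R after coculture (-1.31 ± 0.37). Alone it was 312 and 311 in MM.1S and 59.5 and 87.3 in MM.1R (-2.04, adjusted p = 0.0139). Over 27 histone genes, a list made after their values were seen, 17 stood lower and 0 higher without overlap (background 18.1% and 26.9%), 5 were at least 2-fold lower (0.266%), and the median was -0.47. Of the 27, 14 were myeloma-expressed. Some of the 17 stood near the floor, where non-overlap means little, such as H1-5 at 11.37 and 13.37 in MM.1S and 10.09 and 9.89 in MM.1R. Replication-dependent histone genes are near-identical copies in clusters, and which copy a probe set reads is uncertain. The 38 tested cell cycle genes had a median of -0.03, with 0 at 2-fold in either direction, and this median lay between -0.08 and 0.01 over the alternatives.

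Other low genes included a phosphatase, an adaptor of antigen receptor signalling and a cell surface receptor. PTP4A3 (PRL-3), a phosphatase tied to migration of tumour cells, was 387 and 387 in MM.1S and 79.6 and 104 in MM.1R after coculture (-2.03 ± 0.26, 4.09-fold lower, adjusted p = 0.0718). Alone it was 96.5 and 58.7 in MM.1S and 65.6 and 88.8 in MM.1R (0.02), and the line difference itself differed between conditions by -2.05 (adjusted p = 0.0375). The call of that change was lost with the replicate number as a block. A further probe set of PTP4A3 gave -2.51 after coculture and another -0.26. LCP2 (SLP-76) was 963 and 896 in MM.1S and 473 and 433 in MM.1R (-1.03 ± 0.30, adjusted p = 0.0483 with 8 arrays), and its 5 probe sets lay between -1.26 and -0.91. HAVCR2 (TIM-3), an inhibitory receptor, was 213 and 227 in MM.1S and 71.2 and 65.5 in MM.1R (-1.62 ± 0.33), and its other, dimmer probe set gave -0.21. STAP1, an adaptor of B cell signalling, was 211 and 212 in MM.1S and 97.0 and 92.6 in MM.1R (-1.12 ± 0.37). PVALB, a calcium-binding protein, was 382 and 348 in MM.1S and 160.0 and 136 in MM.1R (-1.28 ± 0.42, adjusted p = 0.0417 with 8 arrays). The lines did not overlap in any of these after coculture.

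Several low readings were less secure. HLA-DQA1, an MHC class II chain, stood at 24.7 and 25.1 in MM.1S and 6.87 and 4.23 in MM.1R, near the floor of the arrays, and its other probe set gave -0.07. INO80B, a chromatin remodelling subunit, was 110.2 and 89.3 in MM.1S and 18.7 and 72.3 in MM.1R, so its duplicates in MM.1R were far apart. NDFIP1, an adaptor of ubiquitin ligases, was 995 and 935 in MM.1S and 356 and 616 in MM.1R. RAP1A, a small GTPase, was called lower in the 8-array fit (-1.23, adjusted p = 0.0282), and a second probe set gave -1.19, but the probe set read at 940.1 and 879.7 in MM.1S gave 0.04. CTAG2, a cancer-testis antigen, was 216 and 195 in MM.1S and 54.5 and 45.0 in MM.1R on 1 probe set (-1.95), and another, near the floor, gave 0.06. CTAG2 was also lower in MM.1R alone, by a difference of -1.31 with an adjusted p of 0.0109. RAP1A and CTAG2 lay outside the ranking, which leaves out genes with probe sets of opposite sign, and were picked after their values were seen. The remaining low genes of the ranking were HMMR-AS1, HSPB2, FRMD3, FNDC5, KLHL4, ENTPD2, PLCD3 and H2AC6, between -2.50 and -1.02.

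**Figure D4:**
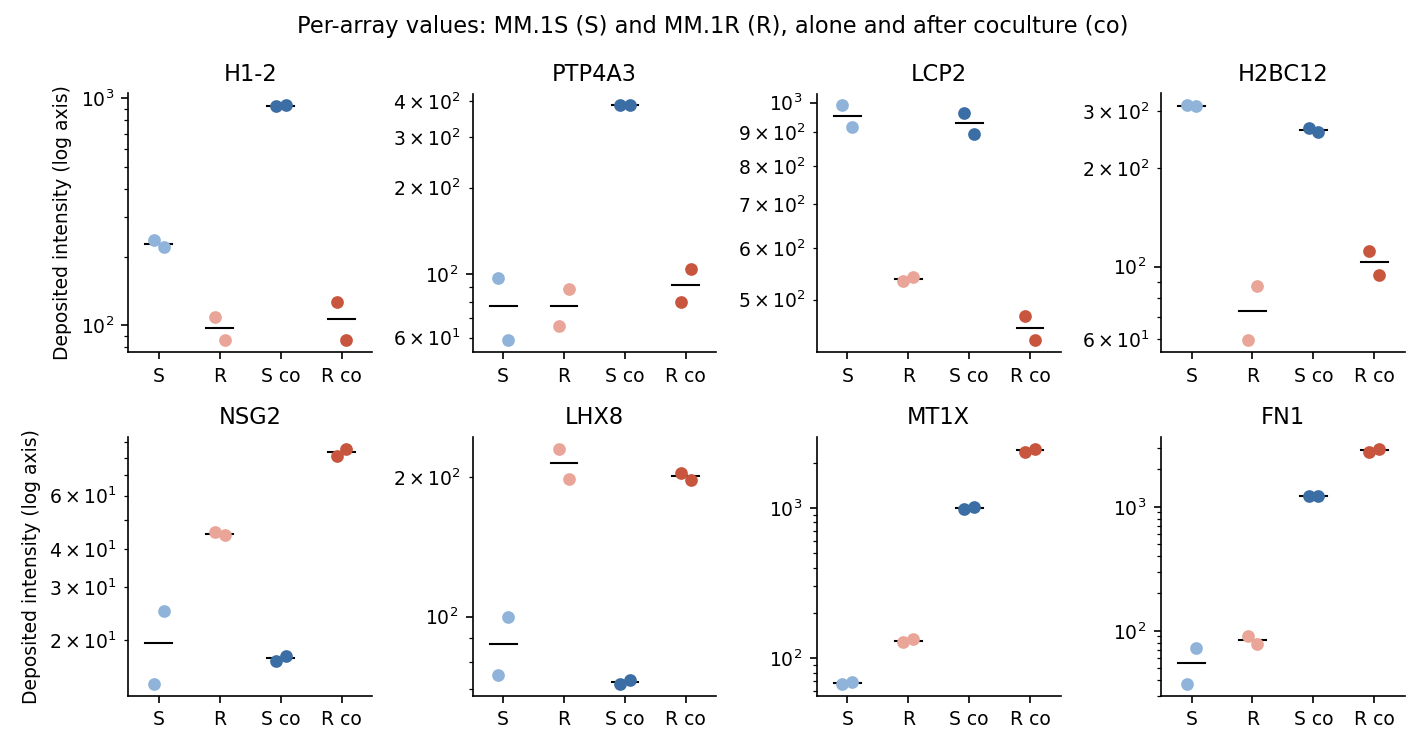
Deposited intensity (vertical axis, log scale, range differing by panel) of 8 genes on each of the 2 arrays of MM.1S (S) and MM.1R (R), alone and after coculture (co), with the mean of the duplicates as a bar. H1-2, LCP2 and H2BC12 lie lower in MM.1R in both conditions, PTP4A3 differs after coculture, NSG2, LHX8 and MT1X lie higher in MM.1R in both, and FN1 reads far above its values alone in both lines after coculture.

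The highest myeloma-expressed genes began with LHX8. LHX8, a homeobox transcription factor, was 71.7 and 73.1 in MM.1S and 204 and 197 in MM.1R after coculture (1.41 ± 0.42, adjusted p = 0.509). Alone it was 74.8 and 99.8 in MM.1S and 229.7 and 198 in MM.1R (1.26, adjusted p = 0.110), so it read much alike with and without stromal cells. NSG2, a neuronal endosome protein from the class of other genes, was 17.1 and 17.8 in MM.1S and 81.2 and 85.6 in MM.1R (1.98 ± 0.27, 3.94-fold, adjusted p = 0.0761, and 0.0495 with 8 arrays). Alone it was 14.3 and 24.9 in MM.1S and 45.5 and 44.4 in MM.1R (1.05, adjusted p = 0.0516), and it was 8.23 and 9.14 in INA-6 after coculture. CTHRC1, PXDN and FN1 encode matrix proteins, and DLC1 and FRMD6 regulate the cytoskeleton and growth signalling. These 5 lay between 1.23 and 1.37, and stromal cells express them too. TMEM200A, S100A16, DNER and JAKMIP2-AS1 completed the 12 highest with LHX8, MT1H and MT1X, and the duplicates of JAKMIP2-AS1 in MM.1S, 57.4 and 128, were far apart. Apart from LHX8 and JAKMIP2-AS1, all of the 12 read higher in both lines after coculture than alone. DNER was 62.8 and 89.9 in MM.1S and 67.9 and 70.2 in MM.1R alone. After coculture it was 875 and 837 in MM.1S and 2110 and 1955 in MM.1R. The part of stromal RNA in these differences was not tested. ALDH1A3, DLX1, CCN2 and CYBRD1 were, with CCL2 and NSG2, the 6 highest of the other genes, at 1.69 to 1.83 and from values of 46.3 or lower in MM.1S.

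The gene lists that describe plasma cells did not separate the lines by size, and the sign of the transcription factor and surface medians depended on the processing. Among 15 transcription factors the median was 0.01 and 0 were 2-fold apart. IRF4, on which myeloma cells depend, was 2596 and 2477 in MM.1S and 2910.2 and 2683 in MM.1R (0.14 ± 0.22, interval -0.36 to 0.64), PRDM1 differed by 0.10 and XBP1, which drives the secretory programme, by -0.08. Among 23 surface genes the median was -0.01. SDC1 (CD138) was 2129.7 and 2126 in MM.1S and 2139 and 2068 in MM.1R (interval of the difference -0.34 to 0.30), and TNFRSF17 (BCMA) differed by -0.01 (interval -0.32 to 0.30). CD81, a tetraspanin, was the 1 surface gene at 2-fold, at 457 and 406 in MM.1S and 958 and 965 in MM.1R, and it stood at 30.8 or lower in both lines alone. MAF, CCND2 and MYC, drivers of myeloma growth, differed by 0.05, -0.04 and 0.04. CDKN2A, a cell cycle inhibitor, was 209 and 175 in MM.1S and 416 and 409 in MM.1R (1.09 ± 0.16, adjusted p = 0.0761). Its difference after coculture lay above that alone by 1.55 (adjusted p = 0.0309), a call that was lost with the replicate number as a block.

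Lists of secretion, protein quality and proliferation also centred near 0. Their medians were -0.09 for immunoglobulin and secretion genes, 0.01 for the proteasome, 0.11 for the unfolded protein response, -0.08 for ribosome biogenesis and MYC targets and 0.04 for MHC class I. The sign of the proteasome and MHC class I medians turned under some alternatives. Among MHC class II genes, CD74, the invariant chain, was 5481 and 4992 in MM.1S and 3515 and 3701 in MM.1R (-0.54 ± 0.15, adjusted p = 0.433). In the lines alone CD74 was higher in MM.1R (1.52, adjusted p = 0.00296), and the line difference changed by -2.06 (adjusted p = 0.0238). The call of that change was lost with the replicate number as a block. The ACTB ratio also differed between the lines alone, and its part was not tested. Interferon-stimulated genes had a median of 0.18, with 6 of 44 at least 2-fold higher (background 2.33%) and 0 lower (0.266%). Those were IFI27, LGALS3BP, CMPK2, IFIT2, IFITM2 and IFITM3, whereas MX1, an antiviral GTPase, was 669 and 638.5 in MM.1S and 533.5 and 564 in MM.1R (-0.25 ± 0.49) and OAS1, a sensor of double-stranded RNA, differed by 0.07.

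Lists of signalling, stress and survival genes had medians from 0.14 to 0.53, below those of the stromal lists. The interleukin 6 and STAT3 list had a median of 0.17 over 22 genes, with OSMR, the oncostatin M receptor, the 1 gene at 2-fold, at 283 and 264 in MM.1S and 669.8 and 699.9 in MM.1R (1.31 ± 0.24). SOCS3, a feedback inhibitor induced by interleukin 6, was 1544 and 1402 in MM.1S and 1195 and 1487 in MM.1R, so the lines overlapped. The NF-kB list had a median of 0.14, with IER3, an early response gene, at 1703 and 1742 in MM.1S and 3968 and 3735 in MM.1R (1.16 ± 0.31, adjusted p = 0.0354 with 8 arrays). AP-1 and immediate-early genes had a median of 0.53, with 10 of 12 higher without overlap (background 26.9%) and ATF3, a stress-induced factor, at 1.06 ± 0.23. Hypoxia and glycolysis genes had a median of 0.22 and genes of the ATF4 response 0.26. In the BCL2 family, median 0.20, BCL2A1, a survival protein, was 119 and 127 in MM.1S and 342 and 376 in MM.1R (1.51 ± 0.34), while MCL1 and BCL2 differed by 0.20 and 0.04. Stromal cells also express many of these genes, and the stromal marker sum moved with them (1.83 times); its part was not tested.

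Most differences between the lines alone were not seen at that size after coculture. Pairs of 1 MM.1S and 1 MM.1R array correlated at 0.974 to 0.985 across 15052 genes after coculture, with a median absolute difference of 0.179 to 0.221. Alone they correlated at 0.918 to 0.948, with 0.426 to 0.531. In the lines alone the same limma fit called 1446 genes (9.61%), 1194 higher in MM.1R (7.93%) and 252 lower (1.67%); under quantile normalization the split was 1112 and 547. The counts were 711 and 113 without either MM.1S coculture array, and 821 and 152 without either MM.1R coculture array, since these arrays enter the shared estimate of spread. The 1194 genes had a median difference of 1.04 alone and 0.02 after coculture, with the same sign for 652 (54.6%), where 54.3% of all genes lay above 0 after coculture. The 252 genes had a median of -0.99 alone and 0.02 after coculture, with the same sign for 110 (43.7%), where 45.7% of all genes lay below 0. Over myeloma-expressed genes, the line difference after coculture and that alone correlated at 0.0183 across genes, which are not independent replicates. The ACTB ratio of the lines alone was 22.4 and 31.4, and its part in these counts was not tested.

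**Figure D5:**
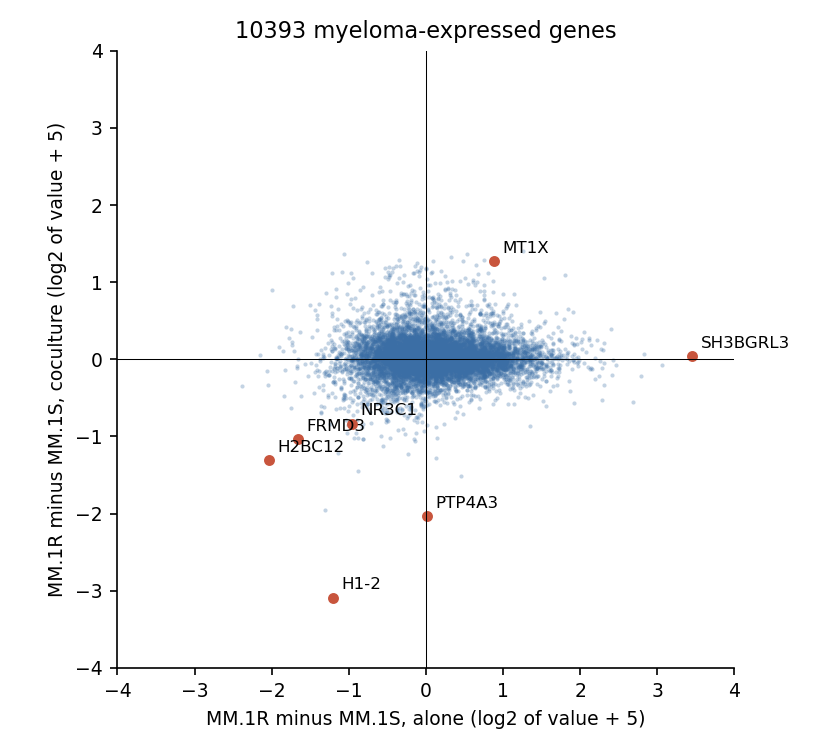
Difference between MM.1R and MM.1S alone (horizontal axis) and after coculture (vertical axis), both in log2 of value + 5, for each of 10393 myeloma-expressed genes (points), with 7 genes marked. The cloud is wide along the horizontal axis and narrow along the vertical axis (SD of 0.592 alone and 0.253 after coculture), and H1-2, H2BC12, FRMD3, NR3C1 and MT1X lie away from 0 on both axes.

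Of the 1446 genes called alone, 14 were also at least 2-fold apart after coculture in the same direction. These were 9 of the 1194 higher genes (0.754%, background 2.33%) and 5 of the 252 lower genes (1.98%, background 0.266%). The lower genes were H1-2, H2BC12, H2AC6 and FRMD3, a membrane scaffold gene, with CTAG2. RNA45SN5, a ribosomal RNA precursor, was 209 and 227 in MM.1S and 500.0 and 416 in MM.1R after coculture, and 255 and 323 in MM.1S and 906 and 776 in MM.1R alone. CD99, an adhesion molecule, was 526 and 526 in MM.1S and 1132 and 1120.5 in MM.1R after coculture, and 29.4 and 42.8 in MM.1S and 134 and 139 in MM.1R alone. The other higher genes were ACTN1, MMP3, MT1HL1, MT1X, PHLDA2, RRAS and WFDC21P. For MMP3 the values alone were 14.4 and 21.2 in MM.1S and 34.8 and 33.9 in MM.1R, far under those after coculture.

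The test of whether the line difference itself changed between conditions called 370 genes (2.46%), 285 below 0 (1.89%) and 85 above (0.565%). It called 0 when any 1 of the 4 coculture arrays was left out, 0 with the replicate number as a block, and 1 below and 0 above with each array centred on its median. Of the 370, 266 and 47 were myeloma-expressed genes below and above 0, and 10 above 0 were stromal-type. SH3BGRL3, a small thioredoxin-like protein, was 67.4 and 28.4 in MM.1S and 537 and 530.3 in MM.1R alone, and 1649 and 1644 in MM.1S and 1763 and 1633 in MM.1R after coculture, a change of -3.41 (adjusted p = 0.0345). CAPNS1, the small calpain subunit, FKBP1A, the receptor of FK506, PSME3, a proteasome activator, and ZNF296, a zinc finger protein, changed by -3.13, -3.01, -2.81 and -2.64. ITPK1, an inositol phosphate kinase, was 183 and 203 in MM.1S and 1493 and 1306 in MM.1R alone, and 267 and 245 in MM.1S and 257 and 281 in MM.1R after coculture (-2.76, adjusted p = 0.0311). In these genes the lines stood apart alone, and after coculture SH3BGRL3 and ITPK1 overlapped. Above 0, TNFRSF10D, a decoy receptor for the death ligand TRAIL, was 102 and 98.3 in MM.1S and 42.4 and 26.7 in MM.1R alone, and 81.7 and 89.2 in MM.1S and 131 and 141 in MM.1R after coculture, a change of 2.08 (adjusted p = 0.0302). The others above 0 were PHLDB2, PXDN, TRIM2, RIMKLB and KIFC2, at 2.08, 2.02, 1.98, 1.93 and 1.93. The ranking by this change compared the sign of the change between probe sets. For the line difference after coculture, RIMKLB gave 0.70 and -0.47 on its probe sets and KIFC2 0.52 and -0.05. The ACTB ratio was 22.4 and 31.4 in the lines alone and 5.10 and 5.21 after coculture, and its part in these changes was not tested.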

How the data were processed

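RNA of 3 sorted myeloma lines, alone or after coculture, was measured on 12 arrays with 54675 probe sets. The deposited values are linear intensities. The authors' software is named as MAS5 per the submitters' processing notes and as dChip per the series' design text, versions not given, and which of them made the values is not settled; a normalization step could compress differences. No read depth applies, and 2 arrays a group limit the precision.

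Probe sets with exactly 1 gene symbol numbered 41097, with several 1801 and with none 11776. Probe sets above the array median on at least 2 of 12 arrays were kept (28050), and each gene (15052 in all) was read from whichever of its probe sets had the greatest average log2 value across all 12 arrays. Values were tested as log2(value + 5), which understates the change of low genes, with limma 3.58.1 in R 4.3.3. The fit had a mean for each of 6 groups, with Benjamini-Hochberg adjustment over 15052 genes and a threshold of 0.05. Standard errors and intervals come from that fit, at 95% confidence. The fit was tested on simulated data in which the arrays varied independently. The deviations of duplicates described below were correlated between groups, so that test does not cover them.

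The members, classes and gene lists were chosen with earlier results of these data known. Genes were to be named as the highest and lowest differences of each class (12 each way for myeloma-expressed, 8 for stromal-type, 6 for other genes, and 6 for the change of the line difference among myeloma-expressed genes). The conditions were a call, a 2-fold difference, duplicates that do not overlap and no probe set of opposite sign; NR3C1 and called list members were added. No gene was called after coculture, so the same ranking was used there without the call, and other list members are examples picked after their values were seen.

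Whether replicate numbers pair the arrays was checked from the deviations of duplicates, which correlated at -0.50 between the cocultured MM.1S and MM.1R arrays, at 0.58 between MM.1R alone and cocultured and at 0.41 between MM.1S alone and cocultured. The numbers thus went together within each of these lines and in opposite order between them, and were not used as pairs in the main fit. A crossed pairing, which matches the first MM.1R array with the second MM.1S array, was added as an alternative. Alternatives were other pseudocounts, filters, scalings, probe set choices, class thresholds and sets of arrays, leaving out each array, and a replicate block.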

Additional observations from a re-analysis of the deposited data

Results flagged for a closer look

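The results below drew attention because the difference between MM.1R and MM.1S after coculture differed from that alone by the limma interaction test. This held for 85 genes above 0 and 285 below 0. Each value is the line difference after coculture minus that alone, on log2(value + 5), and each adjusted p was under the threshold in the 12-array fit. With any 1 of the 4 coculture arrays left out, or with the replicate number as a block, the test called 0 genes.

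Below 0 were SH3BGRL3 at -3.41, CAPNS1 at -3.13, FKBP1A at -3.01, PSME3 at -2.81, ITPK1 at -2.76, ZNF296 at -2.64, PTP4A3 at -2.05 and RAP1A at -0.999. All of these genes were read higher in MM.1S after coculture than alone, for instance at 387 and 387 against 96.5 and 58.7 for PTP4A3. The values were 1648 and 1617 against 624 and 565 for RAP1A, and 1649 and 1644 against 67.4 and 28.4 for SH3BGRL3. Alone, the 6 other than PTP4A3 and RAP1A were read lower in MM.1S than in MM.1R. PTP4A3 overlapped between the lines alone, and RAP1A was read higher in MM.1S on the probe set used.

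Above 0 were COL4A2 at 1.89, TGFBI at 1.89, COL16A1 at 1.74, NBL1 at 1.61, COL5A1 at 1.55, METRNL at 1.53, HAS2 at 1.31 and CSF3 at 1.06. HAS2, which makes hyaluronan, was 97.5 and 104 in MM.1S and 232 and 241 in MM.1R after coculture, and 15.3 or lower in both lines alone. Also above 0 were ITPRIPL2 at 2.87, PHLDB2 at 2.08, TNFRSF10D at 2.08, PXDN at 2.02, TRIM2 at 1.98, COXFA4L3 at 1.97, RIMKLB at 1.93, KIFC2 at 1.93, TPBG at 1.61 and IFI27 at 1.61. Alone, COL4A2, TGFBI, NBL1, METRNL, CSF3, COXFA4L3 and IFI27 stood at 11.13 or lower in both lines, near the floor. A line difference alone could hardly show at such values. KIFC2, TRIM2, RIMKLB, PHLDB2 and TNFRSF10D were lower in MM.1R than in MM.1S alone and higher in it after coculture on the probe sets used. A second probe set gave -0.47 after coculture for RIMKLB and -0.05 for KIFC2.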

How the results depend on the processing

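The 2 arrays a group are technical replicates, and genes near the floor of the arrays carry little information about a difference. After coculture, genes called higher and lower numbered 0 and 0 in the 12-array fit. The counts were 29 and 4 with the filter on the 4 coculture arrays, 1 and 2 with the mean of probe sets, 108 and 6 with a pseudocount of 16, and 189 and 8 with a pseudocount of 32. They were 1 and 2 under quantile normalization, 34 and 6 with the 8 MM.1 arrays, 181 and 32 without the INA-6 alone arrays, and 350 and 40 by size without a test. The other alternatives, each coculture array left out included, gave 0 and 0. The count of 350 was 166 with a pseudocount of 32 and 399 to 543 with 1 array left out. The count of 40 was 107, 15 and 8 with pseudocounts of 1, 16 and 32, and 67 to 305 with 1 array left out. Where leaving out an array raised these counts, the non-overlap condition rested on fewer arrays.

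For the lines alone, the 1194 higher genes became 2757 with the 8 MM.1 arrays, 3104 without the INA-6 alone arrays and 711 to 821 with 1 coculture array left out. The 252 lower genes became 128 with the mean of probe sets, 101 with median centring, 424 with a pseudocount of 32, 547 under quantile normalization, 1285 with the 8 arrays, 1486 without the INA-6 alone arrays and 113 to 152 with 1 array left out. For the change of the line difference, the genes above and below 0 (85 and 285) became 156 and 518 with the coculture filter, 35 and 139 with the mean of probe sets, 0 and 1 with median centring and 8 and 29 with no filter. They became 189 and 488 with a pseudocount of 16, 307 and 669 with 32, 177 and 441 under quantile normalization, 837 and 1642 with the 8 arrays and 1086 and 2002 without the INA-6 alone arrays. A pseudocount of 1 gave 53 above 0, and leaving out any 1 coculture array gave 0 to 0 in both directions.

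With the replicate block the counts were 0 and 0 after coculture, 963 and 178 alone and 0 and 0 for the change of the line difference. With the crossed pairing as a block, chosen after seeing the data as was the fit without the INA-6 alone arrays, they were 0 and 0, 1195 and 305, and 51 and 163.

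NR3C1 passed the threshold at -0.82 with a pseudocount of 16 (adjusted p = 0.0384), at -0.80 with 32 (0.0162) and at -0.83 without the INA-6 alone arrays (0.0208), and lay between -0.91 and -0.75 with 1 array left out (adjusted p = 0.662 to 0.937). The myeloma-expressed median of 0.02 became 0.0438 in genes raised in INA-6 and -0.0339 under quantile normalization, and lay between -0.00161 and 0.0443 with 1 array left out. The stromal-type median of 1.02 became 1.14 with the coculture filter, 0.81 with the mean of probe sets, 0.91 with a pseudocount of 1, 0.95 with 32 and 0.91 under quantile normalization, and lay between 0.938 and 1.08 with 1 array left out. Of 88 genes followed, SH3BGRL3 turned sign after coculture, from 0.04 to -0.0352 under quantile normalization and -0.0121 without the first MM.1R coculture array (-0.0121 to 0.0986 with 1 array left out). The cause of these shifts was not tested.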

Other observations

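Other gene lists had medians from -0.02 to 0.37, and 0 of their members passed the 12-array or the 8-array limma test after coculture. The 22 adhesion and homing receptors had a median of 0.17. ACKR3 (CXCR7), which binds the chemokine CXCL12, was 830.1 and 834 in MM.1S and 1907 and 1830 in MM.1R, and 31.9 and 9.89 on the first arrays of the lines alone. ITGA5, a fibronectin receptor chain, was 135 and 149 in MM.1S and 290 and 281 in MM.1R. CCR10, a chemokine receptor of plasma cells, was 236 and 234 in MM.1S and 203 and 199 in MM.1R. The 17 genes of drug efflux and detoxification had a median of 0.13, with HMOX1, heme oxygenase, at 911 and 898 in MM.1S and 1760 and 1902 in MM.1R.

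The 12 cytosolic heat shock genes had a median of 0.19, with 9 higher without overlap of the duplicates (background 26.9%), and HSPB1, a small heat shock protein, was 1033 and 1060 in MM.1S and 1792 and 1597 in MM.1R. The 10 feedback genes of MAPK signalling had a median of 0.37, also with 9 higher without overlap, and DUSP6, an ERK phosphatase, was 736 and 677 in MM.1S and 958 and 959 in MM.1R. The medians were 0.07 for 14 death receptors and caspases, 0.22 for 16 genes of the list of cyclins D, MAF and MYC, -0.02 for 12 Notch genes and -0.02 for 19 genes of cholesterol and fatty acid synthesis.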
